A study of Mus musculus with 6 samples.

Results

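The 40 genes described here are 20 genes of DNA replication and its start at the border of G1 and S phase, and 20 genes of mitosis and its approach in G2. They were taken by name from a listed set, not by their values, and all 40 were found among the 38924 rows of the table. RNA sequencing was done on 6 libraries of bone marrow progenitors from C57BL/6 mice that had received transduced mouse marrow, sorted as GFP+ (a green fluorescent vector mark), Lin- (no lineage markers) and c-kit+ (the receptor Kit). The mock group (2 libraries) carried a vector with GFP alone and was taken 4 weeks after transplantation. The preleukemia group (2 libraries) carried Evi1-GFP, which adds the transcription factor Evi1, and was also taken at 4 weeks, whereas the leukemia group (2 libraries) carried Evi1-GFP and was taken at 6 months. Because GFP alone was sampled only at 4 weeks, leukemia and time cannot be told apart. All groups share the transplantation, the transduction and the sort. The labels name neither the promoter driving Evi1 nor the number, sex or age of the mice, and do not say whether 2 libraries of 1 group are from different animals, so p-values measure only the spread between these libraries.

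Replication begins when the origin recognition complex (Orc1) with Cdc6 and Cdt1 loads the ring helicase Mcm2 to Mcm7 onto DNA. Cyclin E kinases and E2F factors then drive entry into S phase, Cdc45 and the GINS complex join the helicase, and the clamp Pcna holds the polymerases at the fork. Mitosis is driven by cyclin B with Cdk1 and by the Polo and Aurora kinases, while Bub and Ttk kinases hold the anaphase-promoting complex until every centromere is attached to the spindle. Transcripts of both sets rise and fall with the cell cycle, which is why they serve as readouts of dividing cells in marrow. In bulk RNA, fewer cells in a phase and less RNA per cell cannot be told apart.

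The promoters of the genes are shown because both phases are textbook cases of shared promoter elements. RefSeq windows of 250 bases before to 50 after the start (build GRCm38.p6) matched 34 of the 40 genes, 16 for replication and 18 for mitosis. Ccna2, Aurkb, Mcm4, Ccne2, Gins1 and Gins2 had no entry. An E2F site was searched as TTTCCCGC, TTTGGCGC, TTTGCCGC or TTTCGCGC, the cell cycle homology region (CHR) as TTTGAA and the CCAAT box as CCAAT, all on either strand. In the stretches below, given 5′ to 3′ on the gene's strand, the capitals mark E2F sites in the 4 replication genes. Orc1 had the largest change of all 40 genes in the comparison of leukemia with mock, Mcm5 also changed there, and Mcm6 and Rfc3 were the 2 replication genes whose libraries overlapped.
Orc1, chr4:108579354-108579473, + strand: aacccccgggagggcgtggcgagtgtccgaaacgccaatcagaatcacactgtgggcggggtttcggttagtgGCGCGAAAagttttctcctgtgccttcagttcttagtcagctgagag
Mcm5, chr8:75109339-75109518, + strand: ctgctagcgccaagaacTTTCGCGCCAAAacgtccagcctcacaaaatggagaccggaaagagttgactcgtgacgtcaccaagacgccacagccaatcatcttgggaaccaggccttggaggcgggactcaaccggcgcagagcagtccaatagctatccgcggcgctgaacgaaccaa
Mcm6, chr1:128359686-128359835, - strand: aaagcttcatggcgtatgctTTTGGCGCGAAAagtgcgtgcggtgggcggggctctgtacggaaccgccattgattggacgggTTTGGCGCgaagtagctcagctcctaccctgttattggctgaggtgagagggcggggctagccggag
Rfc3, chr5:151651189-151651268, - strand: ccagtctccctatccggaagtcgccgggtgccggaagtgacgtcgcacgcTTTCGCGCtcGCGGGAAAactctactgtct
In the 4 mitosis genes that follow, which include the central kinase Cdk1 and 3 genes with a CHR and a CCAAT box close together, the capitals mark the CHR and CCAAT boxes and, in Cdk1, also its E2F site.
Cdk1, chr10:69352893-69353062, - strand: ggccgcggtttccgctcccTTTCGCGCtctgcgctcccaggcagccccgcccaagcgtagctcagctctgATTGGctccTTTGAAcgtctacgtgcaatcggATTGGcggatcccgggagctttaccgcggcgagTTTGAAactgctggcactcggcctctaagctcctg
Ccnb2, chr9:70421535-70421654, - strand: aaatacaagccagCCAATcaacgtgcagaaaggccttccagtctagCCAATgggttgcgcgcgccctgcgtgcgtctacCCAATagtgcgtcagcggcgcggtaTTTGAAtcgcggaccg
Cdc20, chr4:118437324-118437423, - strand: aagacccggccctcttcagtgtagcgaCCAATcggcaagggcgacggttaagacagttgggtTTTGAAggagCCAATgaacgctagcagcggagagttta
Kif11, chr19:37376302-37376401, + strand: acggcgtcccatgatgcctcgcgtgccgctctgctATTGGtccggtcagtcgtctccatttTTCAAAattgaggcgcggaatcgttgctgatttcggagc

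In Mcm5 and in the upstream site of Mcm6, 2 E2F matches on opposite strands overlap and share their capitals. The windows of Mcm5 and Mcm6 lie mostly upstream of their annotated GENCODE transcripts. The 34 genes had 36 windows, since 2 genes had more than 1, and a gene was counted where any of its windows held the motif. An E2F site was present in 9 of 16 replication genes (56.2%), in 1 of 18 mitosis genes (5.56%, Cdk1) and in 2.6% of all 27025 genes of the table. The CHR was present in 3 of 16 replication genes (18.8%), in 13 of 18 mitosis genes (72.2%) and in 20.2% of all genes. A CCAAT box was in 68.8% of replication genes, 88.9% of mitosis genes and 41.1% of all genes. A match of letters is a description and does not show that a factor binds there.

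**Figure D1:**
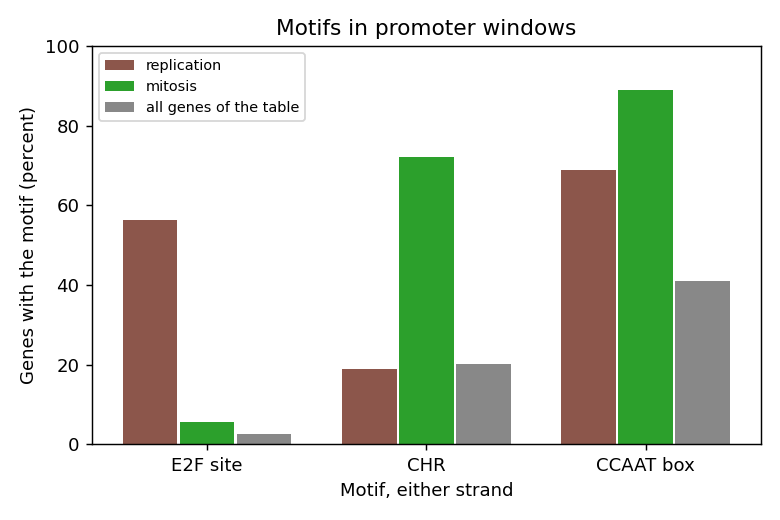
Percent of genes whose promoter window holds an E2F site, a CHR or a CCAAT box on either strand; bars stand for the 16 replication genes, the 18 mitosis genes and all 27025 genes of the table. The E2F bar is highest for replication (56.2%) and the CHR bar for mitosis (72.2%).

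The values are RPKM (reads scaled by transcript length and by the total of the library), which imply 16922456 to 21641130 reads per library, and precision within a gene is set by 60 to 16238 implied reads for replication genes and 326 to 14474 for mitosis genes. Mecom, which encodes Evi1, was at 0.774 and 0.805 RPKM in the mock libraries, 78.0 and 80.1 in preleukemia against 61.7 and 71.5 in leukemia, as the labels say. Kit, the sorted receptor, was at 69.2 and 57.7 RPKM in mock, 60.0 and 56.9 in preleukemia, with 49.3 and 46.8 in leukemia, where it fell against mock by 0.39 on the log2 scale; its part in the results below was not tested. Of 4 T and NK markers, Cd3e, Cd3g and Cd8a were at or near 0 in every library. The fourth, Nkg7, had 87.7 and 47.1 RPKM in mock, 66.7 and 67.2 in preleukemia, with 6.83 and 14.6 in leukemia, and fell there against both other groups. Other lineage markers moved with the groups. The summed RPKM of 8 of 9 listed erythroid markers was 401 and 184 in mock, 224 and 144 in preleukemia, with 29.7 and 38.6 in leukemia. In preleukemia against mock, Hba-a1 went the other way and rose, from 6.10 and 4.81 to 31.6 and 21.1 RPKM. The other 7 had changes below 0 that did not pass the test. The sum of 5 of 6 B-lymphoid markers was 32.3 and 32.8 in mock, 3.83 and 5.94 in preleukemia against 0.272 and 0.164 in leukemia, with 3 of the 5 at 0 in each leukemia library. All 9 neutrophil markers summed to 2968 and 2203 in mock, 7669 and 12340 in preleukemia, with 1777 and 2022 in leukemia. Against mock, 3 of the 9 fell in leukemia (Mpo, Elane and Prtn3, which make up most of the sum) and 3 rose (S100a8, S100a9 and Lcn2), S100a8 from 6.26 and 5.68 RPKM to 227 and 373. The 6 mast cell and basophil markers summed to 118 to 168 in mock and 60.9 to 74.6 in the Evi1 groups. All but Gata2 fell there against mock. Gata2 was at 66.7 and 44.35 RPKM in mock, 51.7 and 41.4 in preleukemia, with 55.9 and 54.75 in leukemia. The 5 megakaryocyte markers summed to 31.3 and 31.8 in mock, 62.8 and 46.3 in preleukemia, with 3.15 and 11.8 in leukemia. In preleukemia against mock Pf4 alone of these rose, and Itga2b had a change below 0 that did not pass. The 5 monocyte and macrophage markers summed to 150 and 221 in mock, 307 and 284 in preleukemia, with 431 and 450 in leukemia. In preleukemia against mock F13a1 rose and Csf1r fell. The part of these cell mixtures in the results below was not tested.

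All 40 genes passed the filter of at least 1 RPKM in at least 2 libraries, as did 10958 rows in all. On the RPKM scale, which is per length, replication genes ranged from 0.745 (Gins2 in a leukemia library) to 161 (Mcm6 in a mock library). Mitosis genes ranged from 4.21 (Cenpf) to 66.6 (Mki67). The median of the gene means was 10.99 RPKM for replication and 16.2 for mitosis, and 9 of 20 genes in each phase had a mean of at least 20 RPKM. In the text, a gene rose or fell if limma's adjusted p was under 0.05 over all tested genes. Fold changes are differences of log2(RPKM + 1), with the standard error (SE). The comparisons share libraries, so their values are set side by side and not correlated.

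**Figure D2:**
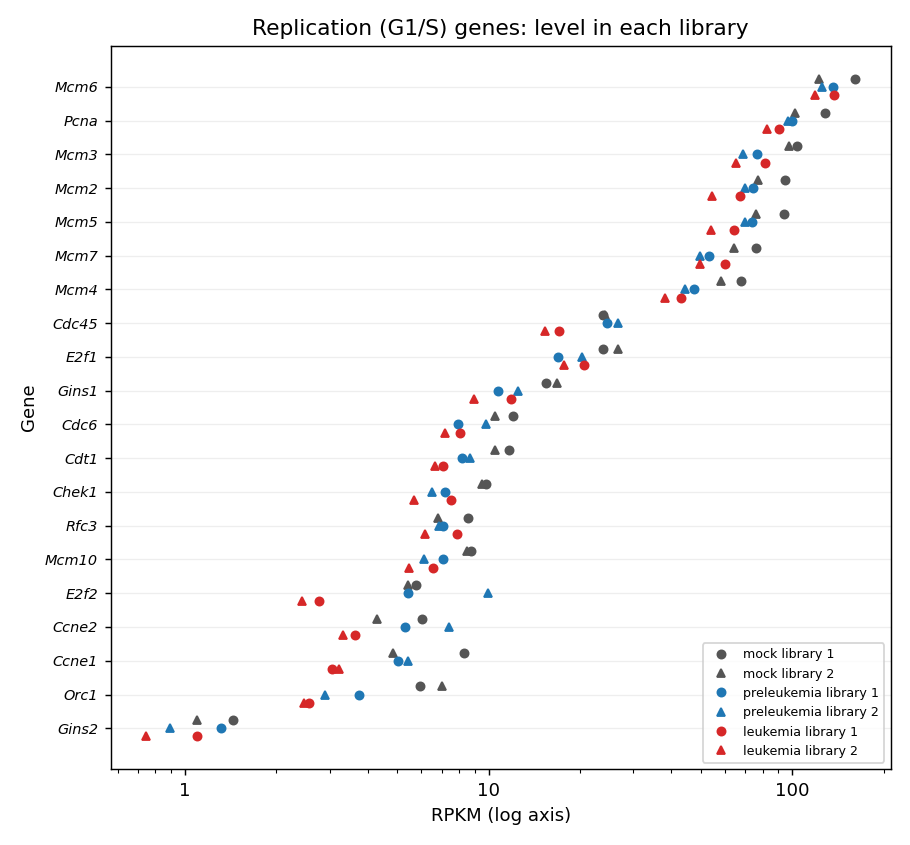
RPKM on a log axis for each of the 20 replication genes, ordered by level; each point is 1 library, with the group in colour and the library number in shape. The leukemia points lie left of the mock points in 18 of 20 genes, and those of Mcm6 and Rfc3 overlap.

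Replication genes were lower in leukemia than in mock. Of 20, 13 fell and 0 rose, against 13.5% lower and 12.1% higher over all tested genes. The 13 were Orc1, Cdc6, Cdt1, Mcm2, Mcm3, Mcm4, Mcm5, Mcm10, Cdc45, Gins1, Ccne1, E2f2 and Chek1, and 16 had an unadjusted p under 0.05. All 20 fold changes were below 0, from -1.09 to -0.12, with a median of -0.49 beside -0.04 over all tested genes. In 18 of 20 both leukemia libraries lay below both mock libraries, against 35.5% of all tested genes. The count depended on single libraries and was smaller whenever any 1 of them was left out. Fitting mock and leukemia alone gave 5, beside 8.81% lower over all tested genes. Dropping the filter on low values gave 4, beside 6.46% lower. The median stayed between -0.61 and -0.37 when any library was left out.

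The 3 loading factors all fell in leukemia against mock. Orc1, the largest subunit of the origin recognition complex, had 5.93 and 7.01 RPKM in mock, 3.74 and 2.90 in preleukemia against 2.56 and 2.46 in leukemia. The 3 groups did not overlap, and mock was highest. Orc1 fell in leukemia by 1.09 on the log2 scale (SE 0.15, limma adjusted p = 0.0039). It had also fallen in preleukemia, by 0.79 (SE 0.15, adjusted p = 0.015), while leukemia against preleukemia gave -0.29 and did not pass. Cdt1, which brings the helicase to the origin with Cdc6, had 11.7 and 10.5 RPKM in mock, 8.15 and 8.66 in preleukemia, with 7.09 and 6.67 in leukemia. It fell in leukemia by 0.62 (SE 0.11, adjusted p = 0.010), and its groups were again in the order mock, preleukemia, leukemia without overlap. Cdc6, the ATPase that works beside Orc1, had 12.0 and 10.5 RPKM in mock, 7.94 and 9.79 in preleukemia against 8.05 and 7.21 in leukemia. Cdc6 fell in leukemia, whereas the preleukemia and leukemia libraries overlapped.

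Of the 6 subunits of the ring helicase, 4 fell in leukemia: Mcm2, Mcm3, Mcm4 and Mcm5. Mcm4 had 67.7 and 58.1 RPKM in mock, 47.4 and 44.4 in preleukemia, with 42.9 and 38.0 in leukemia. Every leukemia library was below every preleukemia library, and these were below mock. Mcm4 fell by 0.62 in leukemia (SE 0.12, adjusted p = 0.011) and by 0.44 in preleukemia (SE 0.12, adjusted p = 0.041). Mcm2 had 94.8 and 77.1 RPKM in mock, 74.4 and 70.0 in preleukemia against 67.5 and 54.4 in leukemia, again without overlap. It fell by 0.49 in leukemia (SE 0.15, adjusted p = 0.0497), at the edge of the threshold. Its adjusted p in preleukemia was 0.28 for a change of -0.24 (SE 0.15), and leukemia against preleukemia gave -0.25 (SE 0.15, adjusted p = 0.28).

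Mcm3 had 104 and 97.7 RPKM in mock, 76.3 and 69.0 in preleukemia, with 81.0 and 65.4 in leukemia. It fell in both Evi1 groups, by 0.47 in preleukemia (SE 0.13, adjusted p = 0.046), and the 2 Evi1 groups overlapped. Mcm6, the most abundant of the 40 transcripts, had 161 and 122 RPKM in mock, 137 and 126 in preleukemia against 138 and 119 in leukemia. Its groups overlapped in every comparison. Mcm5 had 94.0 and 76.0 RPKM in mock, 73.5 and 69.7 in preleukemia, with 64.1 and 53.9 in leukemia, in order and without overlap. Mcm6 made up 25.9% of the summed Mcm2 to Mcm7 level in mock, 29.5% in preleukemia and 30.8% in leukemia, while the share of Mcm4 was 11.5%, 10.3% and 9.71%. The difference in shares was not tested. Mcm7 had 75.8 and 64.1 RPKM in mock against 59.9 and 49.5 in leukemia, without overlap, and did not pass the test.

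Among the factors that start and run the fork, Mcm10, Cdc45 and Gins1 fell in leukemia. Cdc45, which joins the Mcm ring to make the active helicase, stood at 23.8 and 24.2 RPKM in mock, 24.6 and 26.7 in preleukemia, with 17.1 and 15.4 in leukemia. Both leukemia libraries were below the other 4, and preleukemia was slightly above mock. Gins1, a subunit of the GINS complex, had 15.4 and 16.8 RPKM in mock, 10.8 and 12.5 in preleukemia against 11.9 and 8.96 in leukemia. Here mock stood above both Evi1 groups, which overlapped. Mcm10, which binds the loaded ring and is needed for its activation, had 8.73 and 8.51 RPKM in mock, 7.10 and 6.14 in preleukemia, with 6.55 and 5.47 in leukemia. Its Evi1 groups overlapped as well, below mock. Gins2 was near the filter, at 1.45 and 1.10 RPKM in mock and 1.09 and 0.745 in leukemia. Pcna, the sliding clamp, had 129 and 102 RPKM in mock, 100 and 96.6 in preleukemia, with 90.5 and 82.5 in leukemia. The 3 groups were again in order without overlap, but the change in leukemia of -0.40 (SE 0.13) had an adjusted p of 0.063, that in preleukemia of -0.22 (SE 0.13) one of 0.27, and that between leukemia and preleukemia of -0.18 (SE 0.13) one of 0.37. Rfc3, a subunit of the clamp loader, was at 8.55 and 6.81 RPKM in mock and 7.84 and 6.17 in leukemia, with overlap.

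Among the 5 genes of G1/S control, Ccne1, E2f2 and Chek1 fell in leukemia against mock. Ccne1, a cyclin that activates Cdk2, had 8.33 and 4.85 RPKM in mock, 5.02 and 5.42 in preleukemia against 3.04 and 3.21 in leukemia. It was lowest in leukemia, and the mock libraries differed 1.72-fold from each other. Ccne1 fell in leukemia by 0.84 (SE 0.22, adjusted p = 0.032), while the change in preleukemia was -0.25 (SE 0.22, adjusted p = 0.45) and turned to 0.086 without mock library 1. Ccne2, the other cyclin E, had 6.02 and 4.29 RPKM in mock, 5.29 and 7.40 in preleukemia, with 3.64 and 3.32 in leukemia. Leukemia was again below the other groups, but neither the change from mock (-0.45, SE 0.20, adjusted p = 0.14) nor that from preleukemia (-0.70, SE 0.20, adjusted p = 0.052) passed. Preleukemia against mock gave 0.25 (SE 0.20, adjusted p = 0.39).

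E2f2, an activator E2F, had 5.75 and 5.41 RPKM in mock, 5.44 and 9.96 in preleukemia against 2.77 and 2.43 in leukemia. Leukemia was below the other 4 libraries, and preleukemia library 2 alone stood high, 1.83-fold above its partner. E2f2 fell in leukemia against mock by 0.87 (SE 0.24, adjusted p = 0.040). Preleukemia against mock gave 0.35 (SE 0.24, adjusted p = 0.34), and -0.032 without preleukemia library 2. E2f1, the best known activator of S phase genes, had 23.9 and 26.7 RPKM in mock, 16.9 and 20.3 in preleukemia, with 20.6 and 17.8 in leukemia. Mock was highest without overlap, but the changes of -0.42 in preleukemia (SE 0.13, adjusted p = 0.068) and -0.38 in leukemia (SE 0.13, adjusted p = 0.076) did not pass. Chek1, the checkpoint kinase that guards forks, fell in leukemia, from 9.80 and 9.52 to 7.54 and 5.69 RPKM.

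In preleukemia, fewer replication genes passed the test. Of 20, 3 fell (Mcm3, Mcm4 and Orc1) and 0 rose, against 6.02% lower and 13.5% higher over all tested genes, and 9 had an unadjusted p under 0.05. The median change was -0.28 beside 0.05 over all tested genes, and 17 of 20 changes were below 0. In 13 both preleukemia libraries lay below both mock libraries, against 25.5% of all tested genes, and in 1 (Cdc45) above them, against 37.2%. Scaling mattered here, since among all calls the share that was higher was 69.2% as deposited, 60.0% with TMM-like scaling, 52.9% after quantile normalization and 54.3% with medians set equal. The number of replication genes that fell was then 5, 7 and 7, beside 7.73%, 9.60% and 8.81% lower over all tested genes. With no filter on low values it was 0, beside 2.40% lower. The number depended on single libraries, and the median stayed between -0.39 and -0.16 when any library was left out.

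Between leukemia and preleukemia, Cdc45 and E2f2 fell and no replication gene rose, so 2 of 20 were lower against 13% over all tested genes, and 0 were higher against 5.27%. Cdc45 fell by 0.63 (SE 0.10, adjusted p = 0.0094) and E2f2 by 1.22 (SE 0.24, adjusted p = 0.018). Ccne1 gave -0.59 (SE 0.22, adjusted p = 0.11) and E2f1 0.04 (SE 0.13, adjusted p = 0.86). The median was -0.18 beside -0.09 over all tested genes, and in 10 of 20 both leukemia libraries were lower, against 46.0% of all tested genes. Quantile normalization moved the median of all tested genes from -0.09 to 0.03 and that of the replication genes to -0.043, and the share of calls that was higher from 28.8% to 50.8%. The median stayed between -0.26 and -0.10 when any library was left out. The count called was 4 in a fit of those 4 libraries, where 21.9% of all tested genes were lower and 9.50% higher. It also depended on single libraries.

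**Figure D3:**
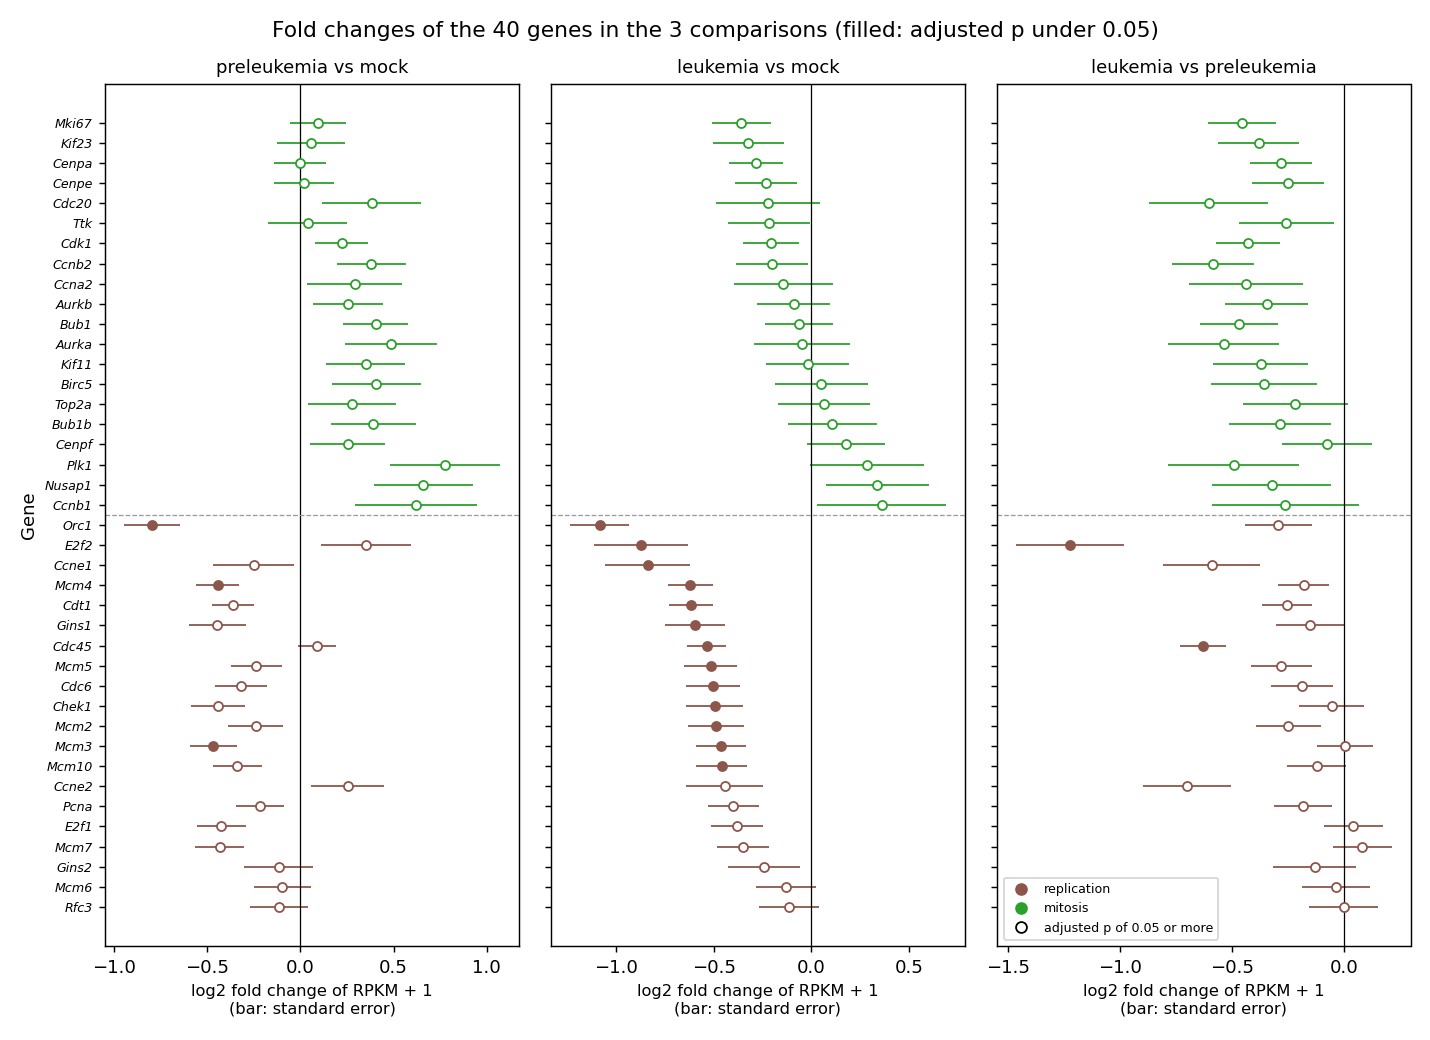
Log2 fold change of RPKM + 1 for the 40 genes in the 3 comparisons, with the standard error as a bar; filled points have an adjusted p under 0.05, brown points are replication genes and green points mitosis genes. In leukemia against mock 13 replication points are filled, all left of 0, and no mitosis point is filled in any panel.

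Mitosis genes gave a different set of values, and the mock pair has to be described first. All 20 were higher in mock library 1 than in mock library 2, by 1.22-fold to 2.34-fold with a median of 1.63-fold. Over all tested genes the median ratio was 1.06, with 58.9% higher in library 1, and over the replication genes it was 1.15. A ratio of at least 1.5 was reached by 13 of the 20 mitosis genes, against 8.49% of all tested genes. Mock library 2 was the lowest of the 6 libraries for 15 mitosis genes. The erythroid sum given above was also higher in mock library 1 (401 against 184), and its part in the difference was not tested. Against this spread, 0 of 20 mitosis genes passed limma's test in each of the 3 comparisons, with 2, 1 and 4 genes at an unadjusted p under 0.05 in preleukemia against mock, leukemia against mock and leukemia against preleukemia. Over all tested genes, the same order gave 13.5%, 12.1% and 5.27% higher and 6.02%, 13.5% and 13% lower, with 3911, 4390 and 3703 of 10956 genes at an unadjusted p under 0.05.

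**Figure D4:**
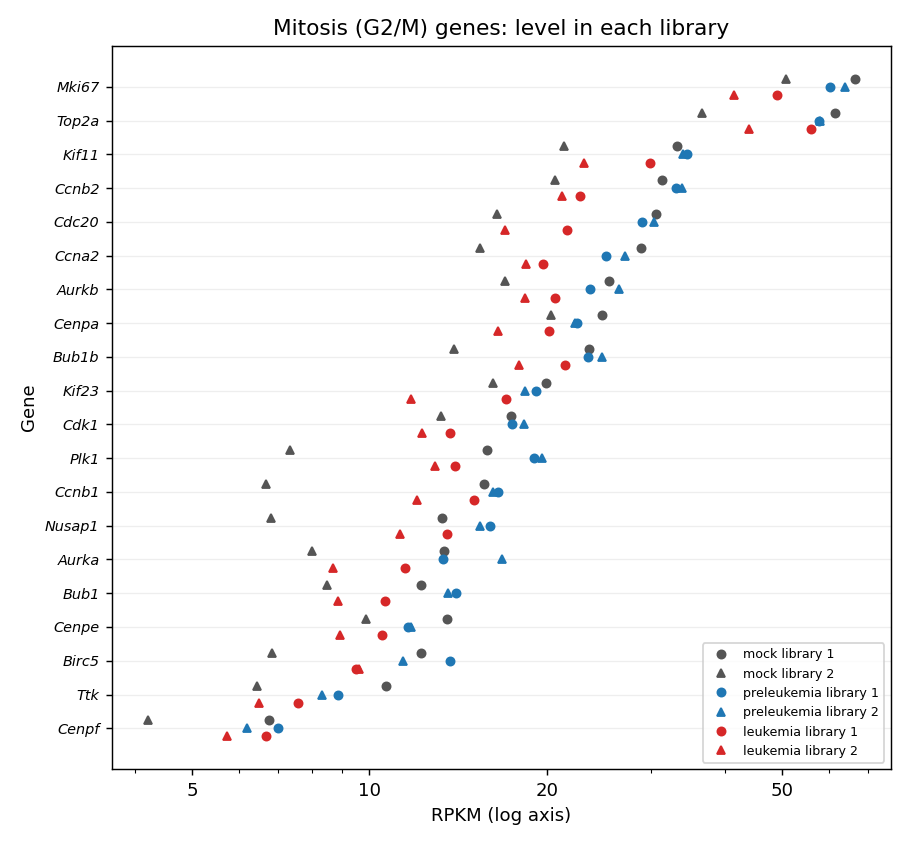
RPKM on a log axis for each of the 20 mitosis genes, ordered by level; each point is 1 library, with the group in colour and the library number in shape. Mock library 1 lies right of mock library 2 in all 20 genes, and mock library 2 is the lowest of the 6 points in 15.

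The kinases and cyclins of G2/M illustrate the pattern. Cdk1, the kinase that starts mitosis, had 17.35 and 13.2 RPKM in mock, 17.41 and 18.3 in preleukemia against 13.7 and 12.3 in leukemia. Preleukemia was the highest group and did not overlap the others, and leukemia overlapped mock. The change was 0.22 in preleukemia (SE 0.14, adjusted p = 0.31), -0.21 in leukemia (SE 0.14, adjusted p = 0.32) and -0.43 between them (SE 0.14, adjusted p = 0.084). Ccnb1, the cyclin partner of Cdk1, had 15.6 and 6.67 RPKM in mock, the widest mock pair of the 20, against 16.5 and 16.2 in preleukemia, with 15.1 and 12.1 in leukemia. Its change was 0.62 in preleukemia (SE 0.33, adjusted p = 0.23), 0.36 in leukemia (SE 0.33, adjusted p = 0.45) and -0.26 between them (SE 0.33, adjusted p = 0.63). Plk1, the Polo kinase of spindle assembly, had 15.8 and 7.35 RPKM in mock, 19.0 and 19.6 in preleukemia against 14.0 and 12.9 in leukemia. The preleukemia pair was tight and the highest. Its change was 0.78 in preleukemia (SE 0.29, adjusted p = 0.11), 0.28 in leukemia (SE 0.29, adjusted p = 0.51) and -0.49 between them (SE 0.29, adjusted p = 0.29).

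Ccnb2, the second B-type cyclin, had 31.4 and 20.6 RPKM in mock, 33.1 and 33.8 in preleukemia, with 22.8 and 21.2 in leukemia. Ccna2, which acts in both S phase and G2, had 28.9 and 15.4, then 25.2 and 27.1, then 19.7 and 18.4 RPKM in the same order. In both genes the leukemia values lay within the mock range and below preleukemia. Aurka, the kinase of spindle poles, had 13.4 and 7.98 RPKM in mock, 13.3 and 16.8 in preleukemia against 11.5 and 8.69 in leukemia. Aurkb, the kinase of the chromosomal passenger complex, had 25.4 and 17.0 RPKM in mock, 23.6 and 26.4 in preleukemia, with 20.6 and 18.4 in leukemia. Both Aurora kinases overlapped between mock and each other group.

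The remaining mitosis genes covered the checkpoint, centromere, spindle and chromosome structure. Bub1, a checkpoint kinase at the kinetochore, had 12.2 and 8.48 RPKM in mock, 14.0 and 13.6 in preleukemia against 10.6 and 8.86 in leukemia. Cdc20, the activator of the anaphase-promoting complex, had 30.6 and 16.5 RPKM in mock, 28.9 and 30.4 in preleukemia, with 21.7 and 17.0 in leukemia. Preleukemia stood above mock without overlap for Bub1 but not for Cdc20. Nusap1, a microtubule protein of the spindle, had 13.3 and 6.82 RPKM in mock, 16.0 and 15.4 in preleukemia against 13.5 and 11.3 in leukemia. Kif11, the motor that separates spindle poles, had 33.2 and 21.4 RPKM in mock, 34.5 and 34.0 in preleukemia, with 29.9 and 23.1 in leukemia. Nusap1 and Kif11 stood above mock in both preleukemia libraries. Cenpa, the histone variant of the centromere, had 24.8 and 20.3 RPKM in mock, 22.5 and 22.3 in preleukemia against 20.2 and 16.5 in leukemia. It was lower than both mock libraries in both leukemia libraries, and its mock pair was the closest of the 20.

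In the other 6 mitosis genes both Evi1 groups overlapped mock. Bub1b (BubR1, a checkpoint protein) had 23.6 and 13.9 RPKM in mock, 23.5 and 24.8 in preleukemia, with 21.5 and 17.9 in leukemia. Ttk (the checkpoint kinase Mps1) had 10.7 and 6.44 RPKM in mock, 8.83 and 8.32 in preleukemia, with 7.56 and 6.502 in leukemia. For both, mock library 2 was the lowest library. Birc5 (survivin, of the chromosomal passenger complex) had 12.2 and 6.84 RPKM in mock, 13.7 and 11.4 in preleukemia, with 9.49 and 9.59 in leukemia. Cenpe, a kinetochore motor, had 13.5 and 9.86 RPKM in mock, 11.6 and 11.8 in preleukemia, with 10.5 and 8.92 in leukemia. In both genes leukemia stood below preleukemia. Cenpf, a large kinetochore protein, had 6.77 and 4.21 RPKM in mock, 6.995 and 6.19 in preleukemia, with 6.68 and 5.73 in leukemia. Kif23, a motor of cytokinesis, had 19.9 and 16.2 RPKM in mock, 19.2 and 18.4 in preleukemia, with 17.0 and 11.8 in leukemia. Leukemia overlapped preleukemia for Cenpf and not for Kif23.

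Mki67, the widely used proliferation mark, had 66.6 and 50.8 RPKM in mock, 60.3 and 64.0 in preleukemia, with 49.0 and 41.4 in leukemia. Leukemia was below all the other libraries. The change was -0.36 against mock (SE 0.15, adjusted p = 0.12), -0.45 against preleukemia (SE 0.15, adjusted p = 0.084) and 0.09 for preleukemia against mock (SE 0.15, adjusted p = 0.69), the last turning to -0.0017 with medians set equal and -0.10 without mock library 2. Top2a, the topoisomerase that untangles sister chromatids, had 61.5 and 36.7 RPKM in mock, 57.8 and 58.0 in preleukemia against 56.1 and 44.0 in leukemia. Mock spanned all the other libraries. The change was 0.28 in preleukemia (SE 0.24, adjusted p = 0.44), 0.06 in leukemia (SE 0.24, adjusted p = 0.86) and -0.22 between them (SE 0.24, adjusted p = 0.57).

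As a group, the mitosis genes had a median change of 0.32 in preleukemia against mock, with 19 of 20 above 0, and in 7 (Ccnb1, Ccnb2, Cdk1, Plk1, Kif11, Nusap1 and Bub1) both preleukemia libraries lay above both mock libraries. The share without overlap in that direction was 37.2% over all tested genes, so 7 of 20 was near the background. In leukemia against mock the median was -0.08 (range -0.36 to 0.36), and both leukemia libraries were lower in 2 genes, Cenpa and Mki67, against 35.5% of all tested genes. In leukemia against preleukemia all 20 changes were below 0, with a median of -0.36 beside -0.09 over all tested genes. Both leukemia libraries lay below both preleukemia libraries in 19 of 20, with Cenpf the exception, against 46.0% of all tested genes.

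The mitosis counts turned on which mock library was kept. Without mock library 1, 15 of 20 mitosis genes rose in preleukemia against mock (22.7% higher over all tested genes), with a median of 0.65, and 5 rose in leukemia against mock (17.4% over all tested genes) with a median of 0.25. Without mock library 2, 0 were called in preleukemia with a median of 0.0031, and 7 fell in leukemia (16.9% over all tested genes) with a median of -0.38. In these fits the lone mock library is assumed to vary like the other groups. Leukemia against preleukemia, which needs no mock library, gave 8 genes that fell in a fit of those 4 libraries (21.9% lower over all tested genes), and 8 and 9 without mock library 1 and 2. Its median stayed between -0.46 and -0.23 when any library was left out.

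Set side by side, replication genes stood below their mock mean in all 4 Evi1 libraries and mitosis genes above it in both preleukemia libraries. Replication genes stood at a median of 107% and 92.9% of their mock mean in the mock libraries, 79.4% and 81.0% in preleukemia against 75.7% and 63.4% in leukemia. Mitosis genes stood at 124% and 76.0% in mock, 124% and 124% in preleukemia against 98.4% and 83.8% in leukemia. Over all tested genes this median was 95.7% to 106%. The mean log2 level of replication genes minus that of mitosis genes was 0.09 and 0.56 in mock, -0.25 and -0.24 in preleukemia against -0.15 and -0.11 in leukemia. It was above 0 in both mock libraries and below 0 in all 4 Evi1 libraries, with the mock libraries 0.47 apart, and no test was made. Within leukemia, library 1 exceeded library 2 in 19 of 20 genes of each phase, against 54.1% of all tested genes, and leukemia library 2 was the lowest of the 6 for 17 replication genes.

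**Figure D5:**
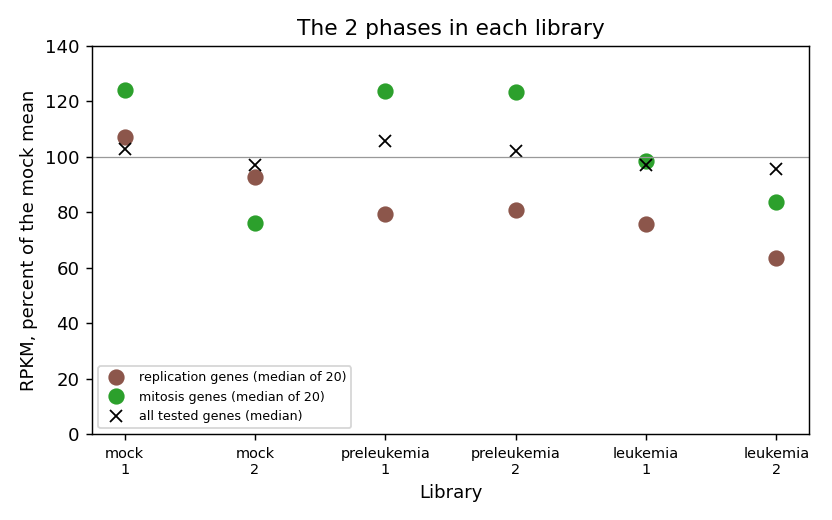
Median RPKM as a percent of the mock mean for the 20 replication genes (brown), the 20 mitosis genes (green) and all tested genes (crosses) in each library; the line marks 100 percent. Replication lies at 63.4 to 81.0 percent in the 4 Evi1 libraries, while mitosis lies at 124 percent in mock library 1 and 76.0 percent in mock library 2.

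Other genes of the same pathways were listed by function. Of 50 other replication genes, 15 fell and 0 rose in leukemia against mock (13.5% lower and 12.1% higher over all tested genes), with a median of -0.31. The number that fell was 7 in a fit of mock and leukemia alone, beside 8.81% lower over all tested genes. It was 10 with no filter on low values, beside 6.46% lower. It also depended on single libraries, and the median stayed between -0.42 and -0.22 when any library was left out. Rrm2, the small subunit of ribonucleotide reductase that makes DNA precursors, had 53.4 and 39.95 RPKM in mock, 44.0 and 54.4 in preleukemia, with 25.1 and 23.4 in leukemia, and fell against both other groups. Donson, a replication fork protein, had 5.89 and 6.04 RPKM in mock, 5.71 and 5.61 in preleukemia, with 3.11 and 3.09 in leukemia, and fell there against both other groups too. In preleukemia against mock (6.02% lower and 13.5% higher over all tested genes) 4 fell (Ticrr, Wdhd1, Orc6 and Recql4) and 1 rose (Cdk2, the kinase of cyclin E), and in leukemia against preleukemia (13% lower and 5.27% higher) 3 fell and 1 (Dscc1) rose. The calls in preleukemia against mock depended on single libraries. There the median was -0.15, and it was -0.058 without mock library 1 and -0.26 without mock library 2. In leukemia against preleukemia, a fit of those 4 libraries gave 11 of 50 that fell, beside 21.9% lower over all tested genes. The calls in that comparison also depended on single libraries. Its median was -0.19, and it stayed between -0.27 and -0.12 when any library was left out.

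Of 78 other mitosis genes, 0 passed limma's test in preleukemia against mock (10 at an unadjusted p under 0.05), 6 fell and 1 rose in leukemia against mock, and 4 fell and 1 rose in leukemia against preleukemia, beside the same shares of all tested genes. The calls depended on single libraries, above all on the mock library kept. Against mock, the median of the 78 was 0.22 in preleukemia and -0.07 in leukemia. Without mock library 1 these medians were 0.38 and 0.12, and without mock library 2 they were -0.03 and -0.29. A fit of mock and leukemia alone gave 2 that fell and 1 that rose, beside 8.81% lower and 8.64% higher over all tested genes. A fit of leukemia and preleukemia alone gave 22 that fell and 2 that rose, beside 21.9% lower and 9.50% higher. The median in leukemia against preleukemia stayed between -0.34 and -0.16 when any library was left out. The gene that rose in leukemia against both other groups was Psrc1, a microtubule protein, with 4.42 and 3.27 RPKM in mock, 4.04 and 4.10 in preleukemia against 7.21 and 7.06 in leukemia. Psrc1 was no longer called in either comparison without leukemia library 1 or 2.

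Among 17 cell cycle transcription factors and pocket proteins, Mybl2 (B-Myb, which activates mitosis genes) fell in both Evi1 groups against mock. It had 17.97 and 16.8 RPKM in mock, 10.7 and 10.9 in preleukemia, with 10.7 and 9.27 in leukemia, so that the Evi1 groups were both lower than mock without overlap. In leukemia against mock Tfdp1, the dimer partner of E2F, and the repressor E2f8 also fell. Rbl2 (p130, a pocket protein of resting cells) rose there from 9.42 and 8.32 to 12.0 and 12.98 RPKM. So 3 of 17 fell and 1 rose, beside 13.5% lower and 12.1% higher over all tested genes. In preleukemia against mock 1 of 17 fell and 0 rose, beside 6.02% and 13.5%. The counts that fell were near these shares. A fit of mock and leukemia alone gave 1 that fell and 0 that rose, beside 8.81% lower and 8.64% higher over all tested genes. The calls also depended on single libraries. Foxm1, the main factor of G2/M genes, had 12.4 and 8.49 RPKM in mock, 13.3 and 15.3 in preleukemia against 12.9 and 10.9 in leukemia, and did not pass in any comparison. Of the replication genes, 6 of 9 with an E2F site in the window fell in leukemia against mock, 5 of 7 without one and 2 of 4 with no window. The shares were not tested against each other. A search for exact letters can miss other forms of a site, so the counts describe only these matches.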

How the data were processed

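The authors deposited 1 table with RPKM values for 6 RNA sequencing libraries. The table does not name its unit, which was inferred from the values: 64.1% to 66.0% of low values, times the exon length in a GENCODE annotation of GRCm38, lay within 0.02 of whole reads. CASAVA 1.8.2 and GRCm38 stand in the submitters' processing notes; aligner, counting and strand setting are not given in the sources used. Groups were compared with limma 3.58.1 (R 4.3.3) on log2(RPKM + 1), with a trend in the prior spread, in 1 fit of all 6 libraries (3 residual and 3.71 prior degrees of freedom). The filter asked for 1 RPKM in 2 libraries. Tests were two-sided, with Benjamini-Hochberg adjustment over all tested genes at 0.05. The fit was tested on simulated data. The genes and lists were chosen with earlier results of these data known. Full statistics were given for Mki67, Top2a, Ccnb1, Cdk1, Plk1, Mcm2, Pcna, Ccne1, Ccne2, E2f1, E2f2 and, per comparison and phase, the 5 called genes with the largest change. Pseudocounts, filters, scalings, the estimate of the spread, a replicate block and each library left out were tried as alternatives. A marker gene is not reported here.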

Additional observations from a re-analysis of the deposited data

How the results depend on the processing

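Across the alternatives run, counts of called genes moved beyond 1.5-fold in 33 cases and stayed within it in 75, while medians moved in 9 and stayed in 99. A median counted as moved where it shifted by at least the standard deviation between libraries of a group in the phase's mean log2 level. That was 0.107 for replication and 0.278 for mitosis, so the 2 phases were not held to the same bar. Many cases that stayed were fixed in advance. Alternatives that change only the spread or the filter, or drop a library outside the comparison, leave fold changes as they were. A count of 0 in both fits, common for mitosis genes, was taken as staying. The numbers that stayed are therefore no measure of stability. Fold changes of the named genes kept direction and call in 621 cases, lost the call in 52, gained it in 36 and changed sign in 11. In preleukemia against mock, the number of replication genes called was 0 with no filter on low values and 5 with TMM-like scaling. It was 7 with quantile normalization, 7 with medians set equal and 1 with array weights, which were chosen after seeing the data. Over all tested genes, 2.40%, 7.73%, 9.60%, 8.81% and 3.97% were lower in these settings. With no trend the number was also smaller than in the main fit. In leukemia against mock it was 4 with no filter, 5 with array weights and 5 when only the 4 libraries concerned were fitted. The shares lower over all tested genes were then 6.46%, 9.46% and 8.81%. In leukemia against preleukemia the number was 1 with no filter, 4 with array weights and 4 in the 4-library fit. Beside these, 4.70%, 24.1% and 21.9% of all tested genes were lower. The replication median there was -0.043 with quantile normalization and -0.066 with medians set equal. The mitosis count in leukemia against preleukemia was 5 with array weights and 8 in the 4-library fit. Over all tested genes, 24.1% and 21.9% were lower in these 2 settings. The cause was not tested.

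With each library left out in turn, the replication count ranged from 0 to 5 in preleukemia against mock, 1 to 10 in leukemia against mock and 0 to 4 in leukemia against preleukemia, and the mitosis count from 0 to 15, 0 to 7 and 0 to 9. The replication median ranged from -0.39 to -0.16, -0.61 to -0.37 and -0.26 to -0.10, and the mitosis median from 0.0031 to 0.65, -0.38 to 0.25 and -0.46 to -0.23. Single genes that changed sign ranged, for preleukemia against mock, from -0.098 to 0.29 (Mki67), -0.086 to 0.64 (Top2a), -0.59 to 0.086 (Ccne1) and -0.032 to 0.74 (E2f2). For leukemia against mock they ranged from -0.30 to 0.43 (Top2a, also -0.11 without leukemia library 1), -0.20 to 0.92 (Ccnb1) and -0.22 to 0.79 (Plk1), and for leukemia against preleukemia from -0.085 to 0.17 (E2f1, also -0.058 without leukemia library 1). With medians set equal, Mki67 in preleukemia against mock was -0.0017. None of these genes had passed the test for that comparison in the main fit of all 6 libraries.

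With the replicate number as a block, 4, 14 and 2 replication genes and 0, 0 and 0 mitosis genes were called in the 3 comparisons. The labels do not say that equal numbers pair libraries, and same-numbered libraries deviated together only weakly (correlations of 0.12, 0.01 and 0.18 over genes). Libraries of 2 per group limit every count, and a low RPKM such as that of Gins2 rests on 60 to 128 implied reads.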
